A study of Mus musculus with 2 samples.

Results

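The genes described here are the 5 that encode the NF-κB transcription factor subunits in mouse, Rel, Rela, Nfkb1, Relb and Nfkb2. They were chosen by name, although with earlier results of these data known, and they are 5 of the 32285 genes counted. They are followed over all cells and within 6 gates that were set on the UMIs (distinct RNA molecules counted) of 6 other genes. Rel, Rela and Nfkb1 are taken as the canonical members, and Relb and Nfkb2 as the noncanonical ones.

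NF-κB acts as dimers of these subunits. In the canonical arm, inhibitors of the IκB family hold dimers of Rela or Rel with the Nfkb1 product in the cytoplasm, until receptors for cytokines or microbial products activate an IκB kinase and the inhibitor is degraded. In the noncanonical arm, receptors such as Ltbr and Cd40 stabilise the kinase Map3k14, and the Nfkb2 precursor is then cut to a shorter subunit that enters the nucleus together with Relb. The uncut precursors of Nfkb1 and Nfkb2 can themselves hold other subunits back, and several subunit genes are known NF-κB targets. Relb is known for its part in dendritic cells, and Rel for its part in lymphocytes.

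The RNA came from sorted LSK cells of bone marrow, which lack mature lineage markers, carry Sca-1 and much Kit, and include blood stem cells and early progenitors. The mice were young, and either wild type (WT) or of the genotype named IkBKO in the deposited cell table, which the labels call IκB–. The labels name neither the altered IκB genes nor a Cre driver, and how many mice were pooled is not stated. Cells of both genotypes were tagged with antibodies and run together in each of 2 droplet libraries, replicates 1 and 2, so 4 pools of cells were compared. The p-values reflect the spread over those 4 pools, which may be technical.

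Replicate 1 held 3721 WT and 3962 IkBKO cells that passed the deposited quality call, and replicate 2 held 4963 and 5383. The pools summed to between 42165571 and 62834572 UMIs, and the median UMIs per cell were higher in IkBKO, at 13709 against 9963 in replicate 1 and 9641 against 6983 in replicate 2. The libraries shared 77 barcodes, of which 39 passed in both. The LSK genes Kit, Ly6a, Cd34 and Ptprc were present in all 4 pools, at a summed 468 to 899 CPM (UMIs per 1000000 UMIs of the pool), and the T cell gene Cd3e stood at 0.403 CPM or less. A list of 11 genes of mature lineages, which the sort should lack, summed to 1291 and 1119 CPM in the WT pools and to 197 and 203 CPM in the IkBKO pools. Of the IκB genes, Nfkbie stood at 9.11 and 12.1 CPM in the WT pools and 2.04 and 1.97 CPM in the IkBKO pools, and Nfkbib at 19.2 and 16.1 CPM against 6.64 and 7.93 CPM. In edgeR's quasi-likelihood test Nfkbie fell by 2.30 on the log2 scale (adjusted p = 0.0028) and Nfkbib fell by 1.19 (adjusted p = 0.0073), whereas Nfkbia did not pass (log2 fold change -0.17, adjusted p = 0.25).

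The genes lie on separate chromosomes apart from Rela and Nfkb2. In the mm10 build, with positions from the GENCODE annotation, Rel lies at chr11:23736847-23770970 on the minus strand, Rela at chr19:5637483-5648130 on the plus strand, Nfkb1 at chr3:135584655-135691547 on the minus strand, Relb at chr7:19606217-19629438 on the minus strand and Nfkb2 at chr19:46304320-46312385 on the plus strand. All 5 are protein-coding genes. The last 299 bases of Nfkb2 overlap Psd on the opposite strand, and AC114539.1, a noncoding gene on the opposite strand, shares 1292 bases with its first part. Gm43430, on the same strand as Nfkb1, lies within it and shares 3897 bases. Whether the counting used strand is not stated. Without strand, reads from the bases shared with Psd or AC114539.1 could not be told apart, and strand does not separate those shared with Gm43430. Psd itself stood at 0.458 to 0.800 CPM in the 4 pools, below Nfkb2 in each of them.

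The start regions of the members were searched for the κB consensus, the sequence that NF-κB dimers bind. RefSeq windows of 300 bases (GRCm38.p6, 250 before and 50 after a start) were at hand for 3 of the 5 members, Rel, Rela and Nfkb2. The motif of 10 bases was searched on both strands. It was found in 4.51% of all 32851 windows and at 5.14% of the 27025 genes. The sequences below run 5′ to 3′ on the strand of the gene, from 250 bases before the start through the first 20 transcribed bases, and the capitals mark matches to the consensus.
Nfkb2, upstream start, chr19:46304487-46304756: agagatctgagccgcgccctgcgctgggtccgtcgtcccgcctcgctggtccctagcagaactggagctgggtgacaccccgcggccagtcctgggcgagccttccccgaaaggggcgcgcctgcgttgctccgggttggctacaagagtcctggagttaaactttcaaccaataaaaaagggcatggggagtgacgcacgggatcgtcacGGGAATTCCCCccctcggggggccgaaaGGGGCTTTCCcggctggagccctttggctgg
Nfkb2, downstream start, chr19:46305445-46305714: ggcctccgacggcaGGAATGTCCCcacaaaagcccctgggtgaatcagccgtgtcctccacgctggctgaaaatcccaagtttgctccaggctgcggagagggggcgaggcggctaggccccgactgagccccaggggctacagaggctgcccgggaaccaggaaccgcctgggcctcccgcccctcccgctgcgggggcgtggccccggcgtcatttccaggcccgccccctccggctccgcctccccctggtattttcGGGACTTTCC
Rel, chr11:23770950-23771219: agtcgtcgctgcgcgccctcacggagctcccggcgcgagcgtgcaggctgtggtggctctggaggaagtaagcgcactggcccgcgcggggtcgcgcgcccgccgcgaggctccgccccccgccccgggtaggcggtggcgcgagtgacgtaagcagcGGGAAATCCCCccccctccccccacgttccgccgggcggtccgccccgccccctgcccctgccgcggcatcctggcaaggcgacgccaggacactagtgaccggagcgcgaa
Rela, chr19:5637291-5637560: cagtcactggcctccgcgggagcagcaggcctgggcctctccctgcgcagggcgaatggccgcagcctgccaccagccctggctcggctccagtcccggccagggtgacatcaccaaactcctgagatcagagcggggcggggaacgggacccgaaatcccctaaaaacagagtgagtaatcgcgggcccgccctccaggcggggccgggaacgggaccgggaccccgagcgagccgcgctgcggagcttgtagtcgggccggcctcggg
The upstream Nfkb2 window held 3 matches, of which a pair overlaps and begins 39 and 38 bases before the start, and the other begins 11 bases before it. The downstream window held 2, beginning 236 bases before and 10 bases after the start, and a further Nfkb2 window that overlaps it held 1 of these same matches. Rel had a pair of overlapping matches that begin 92 and 91 bases before its start, and Rela had none. A match describes these letters and not a bound site.

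Over all LSK cells, the noncanonical genes Relb and Nfkb2 were higher in IkBKO, and the canonical genes were not called in either direction. Relb, the partner of the processed Nfkb2 product, stood at 4.60 and 8.11 CPM in the WT pools of replicates 1 and 2 and at 9.14 and 13.0 CPM in the IkBKO pools. Nfkb2 stood at 6.89 and 9.77 CPM in WT and at 11.3 and 12.9 CPM in IkBKO. For both genes the lower IkBKO pool lay above the higher WT pool, and replicate 2 lay above replicate 1 in each genotype. The share of all genes whose genotypes lay apart in this way was not counted, here or in the classes below. Such gaps between pools are therefore description only. Relb rose by a log2 fold change of 0.92 ± 0.14 (SE, 95% interval 0.57 to 1.26, adjusted p = 0.017, edgeR) and Nfkb2 by 0.65 ± 0.13 (0.32 to 0.97, adjusted p = 0.033). Of 14742 genes tested in this comparison, 13.3% were called, and of the 5 members 2 were. In a summed pool, a change in the mix of cells and a change per cell cannot be told apart. With any 1 of the 4 pools left out, neither gene was called. The log2 fold changes then lay between 0.59 and 1.29 for Relb and between 0.47 and 0.85 for Nfkb2. Those fits also did not account for the library, so the loss of the calls cannot be laid to the pool left out.

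Nfkb1, which gives the DNA-binding partner of Rela and Rel, stood at 85.0 and 95.1 CPM in WT and at 88.9 and 109.8 CPM in IkBKO. Rel, the subunit c-Rel, stood at 29.1 and 43.5 CPM in WT and at 23.6 and 37.4 CPM in IkBKO. Rela, the main activating subunit of the canonical arm, stood at 33.0 and 39.2 CPM against 29.7 and 34.3 CPM. The ranges of the genotypes overlapped for all 3, and within each replicate Nfkb1 was higher and Rel and Rela were lower in IkBKO. The log2 fold changes were 0.23 for Nfkb1 (95% interval 0.04 to 0.42, adjusted p = 0.10), -0.17 for Rel (-0.36 to 0.02, adjusted p = 0.18) and -0.08 for Rela (-0.28 to 0.11, adjusted p = 0.52). Nfkb1 passed the threshold when each cell was thinned to 5000 UMIs (0.29, adjusted p = 0.039), without the cells of the Mpo gate (0.27, adjusted p = 0.011) or without those of the Mecom gate (0.24, adjusted p = 0.048).

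**Figure D1:**
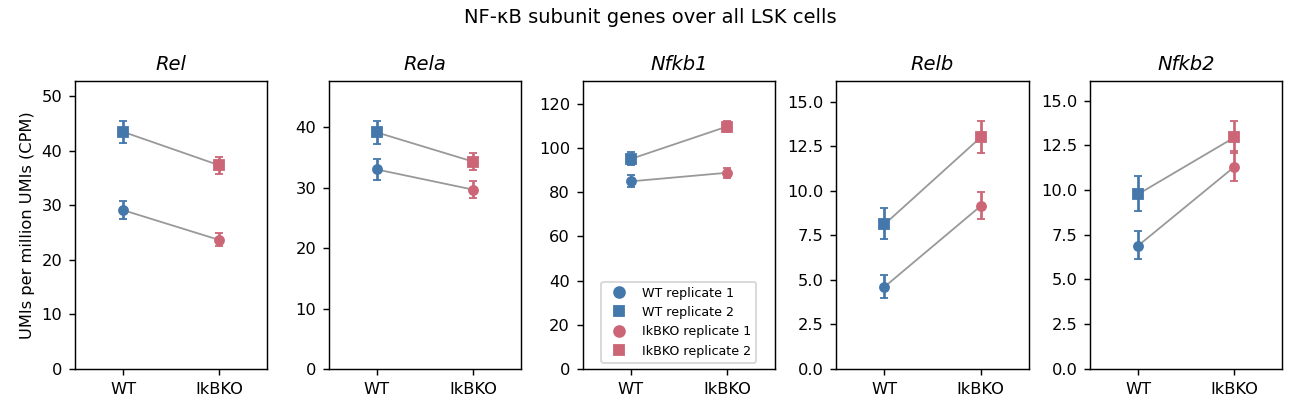
Levels of the 5 subunit genes over all LSK cells, in CPM (UMIs per 1000000 UMIs of the pool) on linear axes from 0, with exact 95% intervals for counting error. Blue is WT and red IkBKO, circles are replicate 1 and squares replicate 2, and grey lines join the genotypes of a replicate: Relb rises from 4.60 to 9.14 and from 8.11 to 13.0 CPM, and Nfkb2 from 6.89 to 11.3 and from 9.77 to 12.9 CPM.

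Part of the difference in Relb and Nfkb2 CPM over all LSK cells lay in the Cd74 gate. It is made of the cells with at least 20 UMIs of Cd74, the chain that guides antigen-presenting molecules. That gate took 1.37% and 0.826% of the WT cells and 5.07% and 6.71% of the IkBKO cells. It supplied 45.8% of the difference in Relb CPM between the genotypes in replicate 1 and 96.0% in replicate 2, and 34.0% and 89.4% of the difference in Nfkb2. Without the cells of the Cd74 gate neither gene was called, with a log2 fold change of 0.48 for Relb (adjusted p = 0.14) and 0.43 for Nfkb2 (adjusted p = 0.12). In replicate 2 the cells outside the gate gave 7.90 CPM of Relb in WT and 8.09 CPM in IkBKO, on the scale of the whole pool, whereas in replicate 1 they gave 4.26 and 6.72 CPM.

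The 6 gates were at least 1 UMI of Mecom (a stem cell regulator), 3 of Dntt (an enzyme of early lymphoid cells), 20 of Mpo (a granule enzyme of myeloid cells), 3 of Pf4 (a megakaryocyte chemokine), 5 of Car1 (a red-cell enzyme) or 20 of Cd74. Of the 18029 cells, 9946 lay in exactly 1 gate, 1268 in more than 1 and 6815 in none, and the last are called ungated. The gates are set in UMIs and so favour deeper cells. The smallest pools were the 9 Car1-gate and 40 Mpo-gate cells of WT replicate 2, and the largest gate pool was the 1761 Mecom-gate cells of the same library and genotype.

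Within the Cd74 gate, Relb, Nfkb2 and Nfkb1 all rose in IkBKO. The gate held 51 and 41 WT cells and 201 and 361 IkBKO cells, with median UMIs per cell of 9361 and 9461 in WT and 7741 and 6618 in IkBKO. Relb stood at 25.4 and 15.0 CPM in WT, from 15 and 9 UMIs, and at 83.9 and 94.2 CPM in IkBKO, from 152 and 300 UMIs. Its genotypes were far apart, with a log2 fold change of 2.16 ± 0.29 (SE, 95% interval 1.52 to 2.80, adjusted p = 0.0012, edgeR).

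Nfkb2 stood at 33.9 and 26.7 CPM in WT and at 67.9 and 61.8 CPM in IkBKO, and its log2 fold change was 1.12 ± 0.26 (adjusted p = 0.025). Nfkb1 stood at 142 and 112 CPM in WT and at 231 and 248 CPM in IkBKO, and its log2 fold change was 0.94 ± 0.19 (adjusted p = 0.013). For both genes the pools of the genotypes did not overlap. Rel stood at 66.1 and 48.4 CPM against 73.9 and 83.5 CPM (log2 fold change 0.49, 95% interval -0.03 to 1.00, adjusted p = 0.32). Rela stood at 39.0 and 51.7 CPM against 39.7 and 46.5 CPM (-0.05, -0.58 to 0.48, adjusted p = 0.95). Of the 5 members, 3 were thus called in the Cd74 gate, where 5.95% of the 8986 genes tested were.

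The calls of Nfkb2 and Nfkb1 in the Cd74 gate were lost under DESeq2's Wald test (adjusted p = 0.96 and 0.27), whereas that of Relb was kept. They were also lost without WT replicate 2 and without either IkBKO pool. Without WT replicate 2 the log2 fold changes were 0.88 for Nfkb2 and 0.70 for Nfkb1. The fits with a pool left out did not account for the library, so these losses cannot be laid to the pool.

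Outside the Cd74 gate no member was called between the genotypes in any gate or in the ungated cells. The share of all genes called was 10.6% in the Mecom gate, 12.8% in the Dntt gate, 0.302% in the Mpo gate, 1.46% in the Pf4 gate, 3.46% in the Car1 gate and 7.57% in the ungated cells. At an unadjusted p under 0.05, 3 members passed in the Mecom gate, 1 in the Dntt gate, 3 in the Mpo gate, none in the Pf4 gate, 1 in the Car1 gate and 3 in the ungated cells. By the same measure 3173 of 12975 genes passed in the Mecom gate, 2874 of 11851 in the Dntt gate, 495 of 11607 in the Mpo gate, 1095 of 10415 in the Pf4 gate, 1151 of 9345 in the Car1 gate and 2885 of 12997 in the ungated cells.

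Relb had a positive fold change in each of these 6 classes. In the ungated cells it stood at 4.75 and 7.20 CPM in WT and at 9.34 and 9.48 CPM in IkBKO, with a log2 fold change of 0.69 ± 0.19 (95% interval 0.26 to 1.11, adjusted p = 0.059). In the Mecom gate it stood at 5.88 and 9.93 CPM against 10.2 and 12.1 CPM, a log2 fold change of 0.52 ± 0.17 (0.15 to 0.89, adjusted p = 0.075). The genotypes did not overlap in either class, although neither passed the threshold. Marker genes differed in these classes as well. The 10 antigen-presenting and dendritic genes summed to 97.4 and 90.2 CPM in WT and to 417 and 299.99 CPM in IkBKO in the ungated cells, and to 148 and 209 CPM against 500.1 and 464 CPM in the Mecom gate. The 11 genes of mature lineages summed to 3114 and 1965 CPM in WT and to 180.4 and 42.0 CPM in IkBKO in the ungated cells, which are the reference of the tests between classes. Their part in the result was not tested. In the ungated cells Relb passed with DESeq2 size factors (adjusted p = 0.045), without the filter on low counts (0.0039) and in thinned cells (0.037), and in the Mecom gate with those size factors (0.022) and without that filter (0.017).

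In the Mpo gate Relb stood at 2.20 and 2.25 CPM in WT and at 5.06 and 5.77 CPM in IkBKO (log2 fold change 1.26, 95% interval 0.31 to 2.21, adjusted p = 0.76). The Dntt gate held 4.63 and 7.60 CPM against 10.2 and 7.20 CPM of Relb (0.52, 0.01 to 1.04, adjusted p = 0.19). In the Pf4 gate the values were 0.698 and 9.45 CPM against 8.52 and 10.8 CPM (0.83, adjusted p = 0.55), and in the Car1 gate 2.05 and 5.12 CPM against 7.53 and 5.06 CPM (1.43, adjusted p = 0.58). Relb was thus higher in IkBKO within both replicates in 5 of the 7 classes, and split in the Dntt and Car1 gates.

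Nfkb2 was higher in IkBKO within both replicates in 5 of the 7 classes as well, and split in the Pf4 and Car1 gates. In the ungated cells it stood at 7.46 and 8.88 CPM in WT and at 12.7 and 10.9 CPM in IkBKO (log2 fold change 0.55, 95% interval 0.18 to 0.92, adjusted p = 0.079). Its call in that class was made without the filter on low counts (adjusted p = 0.011), in thinned cells (0.046) and with doubled gate thresholds (0.035). In the Mecom gate it stood at 7.92 and 10.7 CPM against 12.2 and 12.0 CPM (0.39, adjusted p = 0.15). The other log2 fold changes of Nfkb2 were 0.46 in the Dntt gate, 0.95 in the Mpo gate, 0.11 in the Pf4 gate and 0.50 in the Car1 gate.

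Nfkb1 was higher in IkBKO within both replicates in 6 of the 7 classes, with log2 fold changes from 0.10 in the Dntt gate to 0.46 in the Car1 gate outside the Cd74 gate. Rel was higher in both replicates only in the Cd74 gate among the 7 classes, lower in both in 2 and split in 4, and Rela was higher in both in none, lower in both in 3 and split in 4. Over these 6 classes outside the Cd74 gate the log2 fold changes of Rel lay between -0.34 and 0.01, and those of Rela between -0.16 and 0.27.

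**Figure D2:**
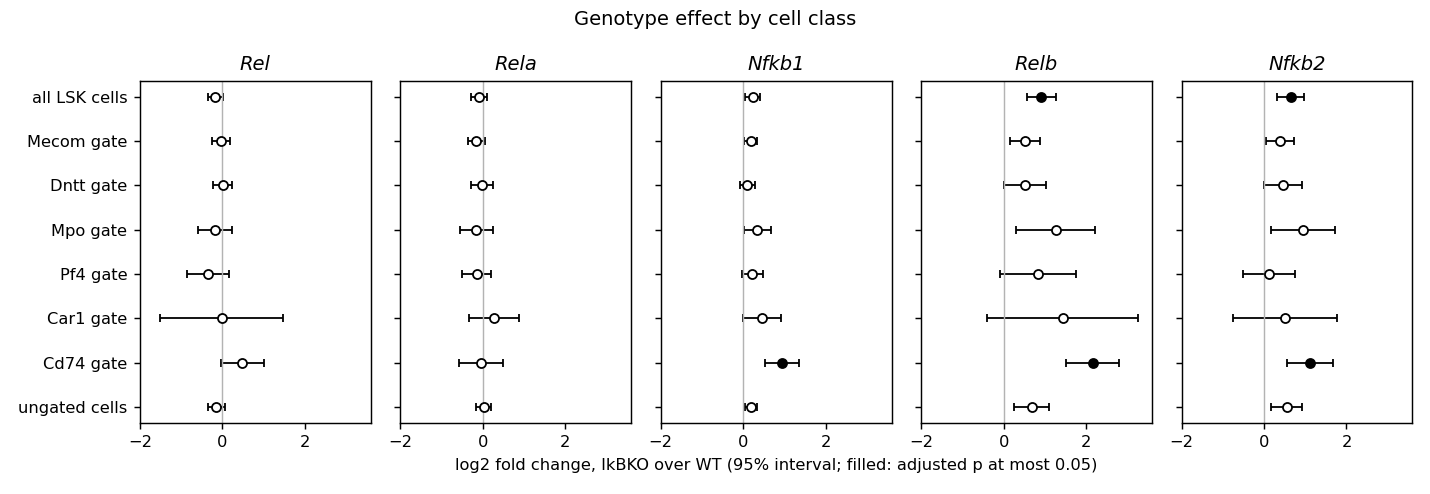
Log2 fold change of each subunit gene, IkBKO over WT, with its 95% interval, over all LSK cells and in each class. Filled points passed an adjusted p of 0.05: Relb and Nfkb2 over all LSK cells, and Relb (2.16), Nfkb2 (1.12) and Nfkb1 (0.94) in the Cd74 gate.

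Whether a genotype effect differed between a gate and the ungated cells was tested as an interaction. For the Cd74 gate, the effect was larger than in the ungated cells by 1.52 ± 0.37 on the log2 scale for Relb (95% interval 0.73 to 2.31, adjusted p = 0.038, edgeR) and by 0.81 ± 0.18 for Nfkb1 (0.43 to 1.19, adjusted p = 0.019). The difference was 0.61 for Nfkb2 (-0.06 to 1.28, adjusted p = 0.41), 0.66 for Rel (0.00 to 1.32, adjusted p = 0.36) and -0.004 for Rela (-0.55 to 0.54, adjusted p = 1.00). Of 12787 genes, 2.53% were called in this test, and of the members 2 of 5 were. Both calls were lost without WT replicate 2 (Relb 0.86, adjusted p = 0.42, and Nfkb1 0.59, adjusted p = 0.11), without IkBKO replicate 2 (1.44, adjusted p = 0.12, and 0.82, adjusted p = 0.091) and in thinned cells (1.11, adjusted p = 0.35, and 0.64, adjusted p = 0.16). That of Nfkb1 was also lost without IkBKO replicate 1 (0.85, adjusted p = 0.052).

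No member's genotype effect was called as different from that of the ungated cells in the other gates, and none had an unadjusted p under 0.05 there. There 0.179% of all genes were called for the Mecom gate, 0.581% for the Dntt gate, 0.0539% for the Mpo gate, 0.0316% for the Pf4 gate and 0.488% for the Car1 gate. For Relb the differences ranged from -0.17 to 0.44 over these 5 gates, and the upper ends of their 95% intervals were 0.28 in the Mecom gate, 0.43 in the Dntt gate, 1.34 in the Mpo gate, 1.47 in the Pf4 gate and 2.37 in the Car1 gate. A difference of the 1.52 seen in the Cd74 gate thus lay within the Car1 interval and above the other 4.

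The subunit genes also differed between the cell classes. Each gate was compared with the ungated cells of the same pools, over both genotypes (8 pools a fit). In the Cd74 gate all 5 members were called higher, with log2 fold changes of 2.85 ± 0.35 for Relb (adjusted p = 0.0010, edgeR), 2.34 ± 0.19 for Nfkb2 (adjusted p = 1.2e-05), 1.20 ± 0.21 for Rel (adjusted p = 0.0030), 0.93 ± 0.17 for Nfkb1 (adjusted p = 0.0057) and 0.42 ± 0.13 for Rela (adjusted p = 0.037). Of 11900 genes tested there, 29.4% were called. The Relb, Nfkb2, Rel and Nfkb1 calls held under all 14 alternatives run for them, whereas the Rela call held under 5 of 14. By this fold change over both genotypes Relb was the member furthest from the ungated cells. It stood at 15.0 to 25.4 CPM in the WT and 83.9 to 94.2 CPM in the IkBKO pools of the gate. In WT alone Nfkb2 was further in proportion. Its WT means were 30.3 CPM in the gate and 8.17 CPM in the ungated cells, against 20.2 and 5.97 CPM for Relb.

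Over the other 5 gates, Rel was called in 3. In the Dntt gate it stood at 41.3 and 53.2 CPM in WT and at 42.9 and 47.3 CPM in IkBKO, against 22.9 to 41.8 CPM in the ungated cells. All 4 pools were higher in the gate, a log2 fold change of 0.53 ± 0.09 (adjusted p = 0.00038). In the Pf4 gate Rel stood at 9.08 and 29.8 CPM in WT and at 10.5 and 19.8 CPM in IkBKO, and in the Car1 gate at 4.10 and 15.3 CPM and at 6.13 and 7.17 CPM. Rel fell in both, by 0.99 on the log2 scale in the Pf4 gate (adjusted p = 0.00028) and by 2.19 in the Car1 gate (adjusted p = 2.5e-09). Its levels thus ran from the Cd74 gate over the Dntt gate down to the Pf4 and Car1 gates. In IkBKO the ranges of the replicates of these 4 gates did not overlap. In WT the Cd74 gate overlapped the Dntt gate and the Pf4 gate overlapped the Car1 gate, whereas the Dntt gate lay above the Pf4 gate.

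The share of all genes called against the ungated cells was 26.5% in the Dntt gate, 22.3% in the Pf4 gate and 44.3% in the Car1 gate, and Rel was the only member called in the first 2 of these. In the Car1 gate Nfkb1 fell as well, by 0.45 on the log2 scale (adjusted p = 0.0085), from 91.9 to 108.7 CPM in the ungated pools to 56.3 to 86.2 CPM. This Nfkb1 call held under 9 of 13 alternatives. It was lost in thinned cells (log2 fold change -0.19, adjusted p = 0.58), without WT replicate 1 (-0.38, adjusted p = 0.096), without WT replicate 2 (-0.34, adjusted p = 0.053) and with gates per 10000 UMIs (-0.35, adjusted p = 0.069). In the same comparison the median of all genes lay at -0.12.

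In the Mpo gate Relb fell by 0.72 on the log2 scale (adjusted p = 0.0037), Nfkb2 by 0.47 (adjusted p = 0.018) and Nfkb1 by 0.23 (adjusted p = 0.014), so 3 of 5 members were called, a share near the 55.7% of all genes called. Of 13 alternatives the Relb call held under 12, and the Nfkb2 and Nfkb1 calls under 10 each. Relb stood at 2.20 to 5.77 CPM over the 4 pools of this gate and at 4.75 to 9.48 CPM in the ungated cells. In the Mecom gate 10.0% of all genes were called and none of the members, whose log2 fold changes lay between -0.06 for Nfkb1 and 0.25 for Relb (adjusted p = 0.11).

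**Figure D3:**
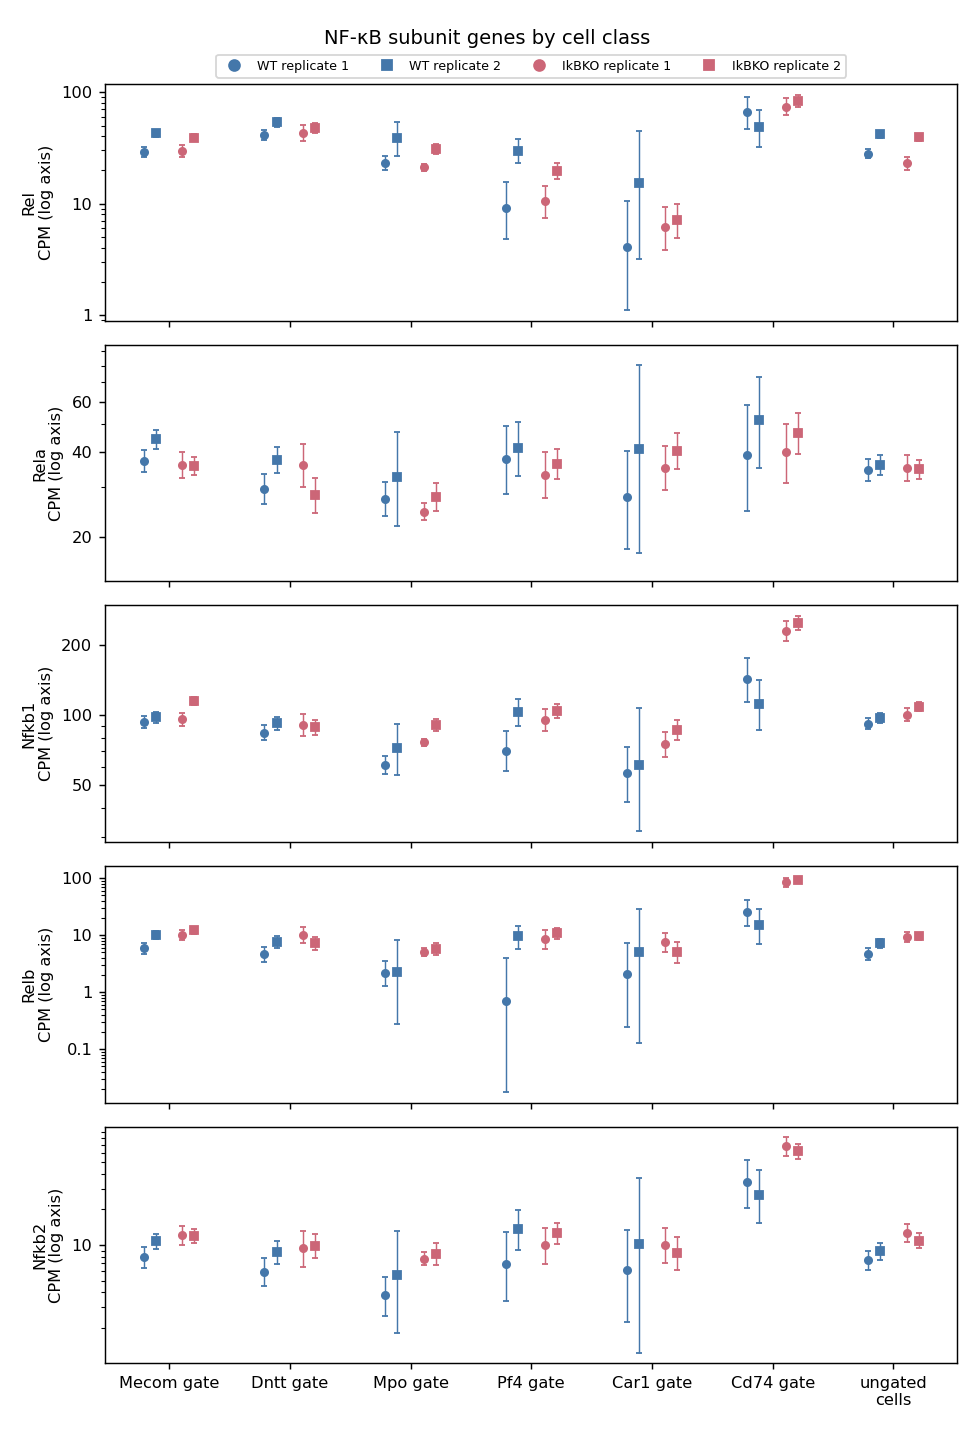
Levels of the 5 subunit genes in CPM, on log axes that differ between panels, in the 6 gates and the ungated cells, with exact 95% intervals for counting error. Blue is WT and red IkBKO, circles are replicate 1 and squares replicate 2: Relb, Nfkb2 and Nfkb1 are highest in the Cd74 gate, where the IkBKO pools lie above the WT pools, and Rel is lowest in the Car1 gate.

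In rank order of the mean, Relb was highest in the Cd74 gate in both genotypes, followed by the Mecom gate, and lowest in the Mpo gate. Only the step from the Cd74 gate to the next class exceeded the spread of the replicates in this order of Relb levels, in WT (15.0 to 25.4 CPM against 5.88 to 9.93 CPM) and in IkBKO (83.9 to 94.2 CPM against 10.2 to 12.1 CPM). Nfkb2 was likewise highest in the Cd74 gate and lowest in the Mpo gate in both genotypes. Nfkb1 was highest in the Cd74 gate, followed by the Mecom gate and the ungated cells, and lowest in the Car1 gate. Rela varied least, with class means between 30.0 and 45.4 CPM in WT and between 26.2 and 43.1 CPM in IkBKO, highest in the Cd74 gate and lowest in the Mpo gate.

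Other marker genes in the Cd74 gate differed in level between the genotypes. The summed level of 10 antigen-presenting and dendritic genes was 9508 and 7114 CPM in the WT pools of the gate and 15059 and 15201 CPM in the IkBKO pools, with none of the 10 at 0 in both pools of a genotype. A set of 5 B cell genes summed to 252 and 346 CPM in WT against 128 and 186 CPM in IkBKO, and 4 monocyte genes to 849 and 444 CPM against 783 and 948 CPM. The list of 11 genes of mature lineages summed to 1622 and 10509 CPM in WT and to 86.1 and 1842 CPM in IkBKO, with Cd3e at 0 in each pool. S100a8, S100a9, Camp and Hbb-bs stood at 2781, 2904, 2315 and 2040 CPM in the Cd74 gate of WT replicate 2. Their part in the result was not tested.

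The gate was therefore split, after its values were seen, by other genes: cells with at least 2 UMIs of Il4i1 and Fscn1 together (genes of mature dendritic cells), then of Siglech (plasmacytoid cells), then of the B cell genes Ms4a1, Cd79a and Pax5, then with at least 1 UMI of Batf3 (a dendritic cell regulator), and the rest. The Il4i1 or Fscn1 cells numbered 75 and 172 in IkBKO, which is 37.3% and 47.6% of the gate, and 2 and 1 in WT. In IkBKO these cells held 154 and 144 CPM of Relb, 120 and 78.6 CPM of Nfkb2 and 280 and 256 CPM of Nfkb1, and their few WT counterparts are too few for a level.

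Among the Batf3 cells, 28 and 19 in WT and 56 and 66 in IkBKO, Relb stood at 15.4 and 14.4 CPM in WT and at 42.7 and 46.1 CPM in IkBKO. Nfkb1 stood at 157 and 144 CPM in WT and at 238 and 272 CPM in IkBKO, and Nfkb2 at 39.9 and 18.0 CPM against 42.7 and 49.2 CPM. Relb and Nfkb1 were thus apart by genotype among the Batf3 cells, whereas Nfkb2 in WT replicate 1 lay close to the IkBKO pools. The WT levels of Relb here rest on 5 and 4 UMIs. Among the cells left after the split, Nfkb1 stood lower in IkBKO in replicate 1 (187 against 203 CPM). In replicate 2 it stood higher (260 against 125 CPM). Relb in these cells was higher in IkBKO in both replicates (62.0 against 42.6 CPM, 73.1 against 12.5 CPM), from 4 and 1 UMIs in WT. Siglech cells of IkBKO held 160 CPM of Relb in replicate 1 (6 cells) and 22.8 CPM in replicate 2 (58 cells). The latter lay within the WT range of the gate. The part of the cell mix was not tested. Cells with B cell genes were 13.7% and 31.7% of the WT gate and 0.498% and 2.49% of the IkBKO gate.

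Leaving out every cell with at least 2 UMIs of Il4i1 and Fscn1, an alternative chosen after the data were seen, left Relb called in the Cd74 gate (log2 fold change 1.51, adjusted p = 0.026). The calls of Nfkb2 (0.68, adjusted p = 0.36) and Nfkb1 (0.84, adjusted p = 0.056) were lost. Over all LSK cells the same step gave 0.60 for Relb (adjusted p = 0.074) and 0.49 for Nfkb2 (adjusted p = 0.069).

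**Figure D4:**
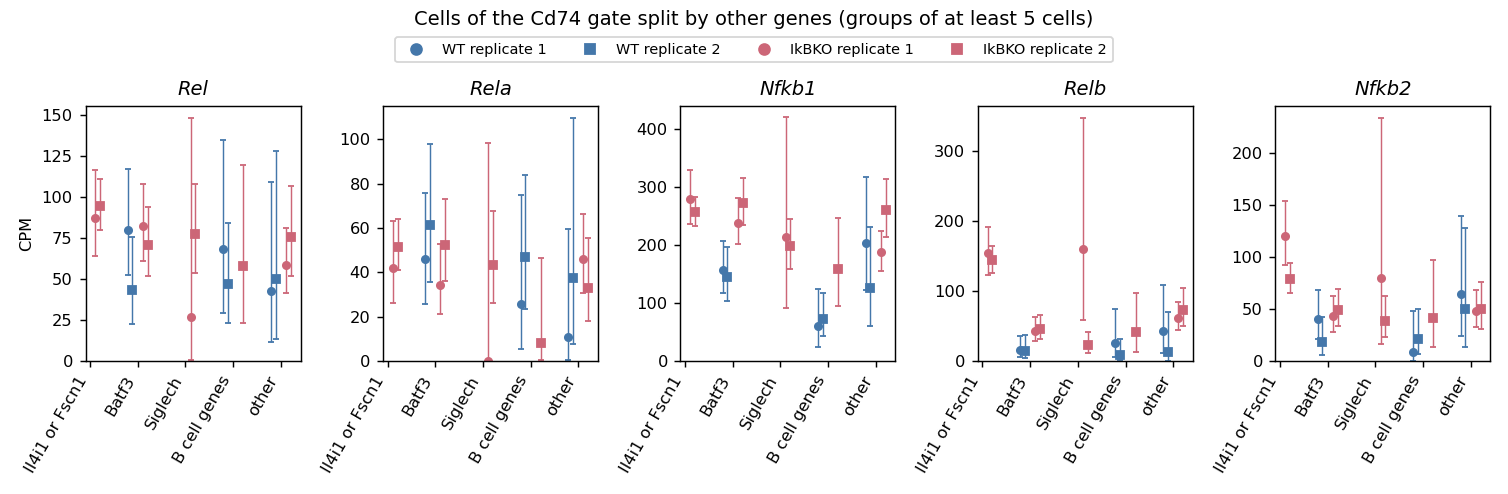
Levels of the 5 subunit genes in CPM within groups of Cd74-gate cells, drawn where a pool had at least 5 cells, with exact 95% intervals for counting error. Blue is WT and red IkBKO, circles are replicate 1 and squares replicate 2: the Il4i1 or Fscn1 cells, present only in the IkBKO pools at this size, hold 154 and 144 CPM of Relb, and the Batf3 cells hold 42.7 and 46.1 CPM in IkBKO against 15.4 and 14.4 CPM in WT.

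The noncanonical share is that of Relb and Nfkb2 in the summed UMIs of the 5 genes. It is given with exact Clopper-Pearson 95% intervals for counting error only and no test. The share describes RNA levels, and the activity of the arms was not measured. Over all LSK cells the noncanonical share was 7.25% and 9.14% in WT and 12.6% and 12.5% in IkBKO, a difference of 5.32 percentage points in replicate 1 and 3.36 in replicate 2. In the Cd74 gate it was 19.3% and 16.4% in WT and 30.6% and 29.2% in IkBKO. The ungated cells held 7.33% and 8.44% against 12.2% and 10.0%. The share was higher in IkBKO within both replicates in 6 of the 7 classes, and in the Car1 gate it was higher in replicate 1 and lower in replicate 2, where the WT pool had 9 cells. The lowest shares were those of the Mpo gate in WT, at 5.07% and 5.22%.

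**Figure D5:**
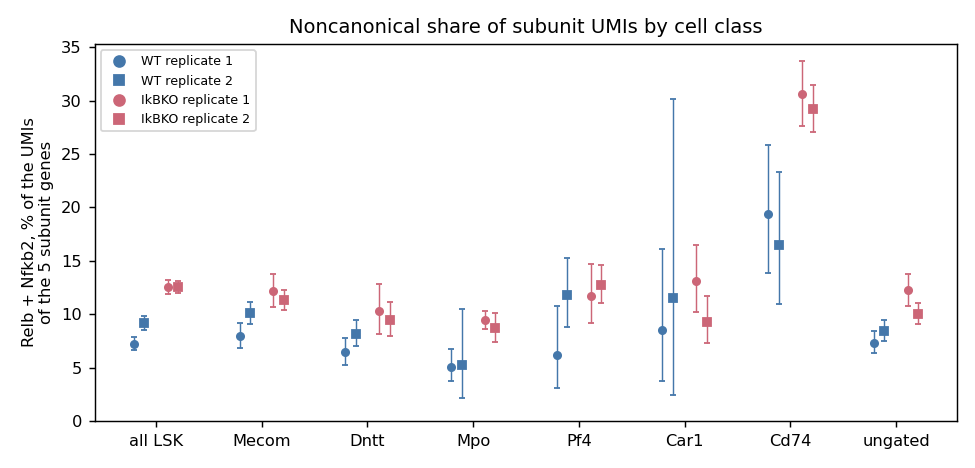
Share of Relb and Nfkb2 in the UMIs of the 5 subunit genes, in percent on an axis from 0, over all LSK cells and in each class, with exact 95% intervals for counting error. Blue is WT and red IkBKO, circles are replicate 1 and squares replicate 2: the shares are 7.25% and 9.14% in WT and 12.6% and 12.5% in IkBKO over all LSK cells, and 19.3% and 16.4% against 30.6% and 29.2% in the Cd74 gate.

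A list of 45 further pathway genes was read in the same fits. Over all LSK cells 43 were tested, of which 4 rose and 7 fell, where 13.3% of all genes were called, with a median log2 fold change of 0.03 over the list against -0.01 over all genes. The 4 that rose were Cd40 (3.00, adjusted p = 0.0056), a receptor of both arms, Bcl3 (1.08, adjusted p = 0.0046), a nuclear IκB protein, Tnfaip3 (1.00, adjusted p = 0.013) and Tnip1 (0.36, adjusted p = 0.040), which restrain the signal. Those that fell were Nfkbie, Nfkbib, Nfkbiz (by 0.71), Nfkbid (by 0.55), the ligands Tnf (by 0.89) and Tnfsf12 (by 0.82) and the receptor Il1r1 (by 0.62). The labels do not say whether Nfkbie and Nfkbib are the altered IκB genes. Their falls, here and in the Cd74 gate, are therefore not read as a response of the pathway. None of the 12 genes listed as adaptors and kinases of the canonical arm and none of the 4 listed under the noncanonical arm passed. The list places Chuk, which also acts on the Nfkb2 precursor, under the canonical arm.

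In the Cd74 gate 36 of the list were tested between the genotypes, of which 9 rose and 2 fell, where 5.95% of all genes were called, and the median was 0.32 against 0.00 over all genes. Of the noncanonical arm, Birc3 rose (30.5 and 23.4 CPM in WT against 74.5 and 76.6 CPM in IkBKO, log2 fold change 1.51, adjusted p = 0.0053), and so did Birc2 (30.5 and 33.4 CPM against 58.5 and 76.0 CPM, 1.09, adjusted p = 0.026). Both encode ubiquitin ligases that keep Map3k14 low. Map3k14 itself did not pass (25.4 and 21.7 CPM against 25.9 and 23.2 CPM, 0.08, adjusted p = 0.93), nor did Traf3 (0.64, adjusted p = 0.47).

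Of the other list members in this gate, the inhibitors Tnfaip3 (2.66, adjusted p = 0.0017), Bcl3 (2.25, adjusted p = 0.0024), Nfkbia (1.13, adjusted p = 0.0035) and Tnip1 (1.11, adjusted p = 0.044) rose. So did the ligands Il1b (2.67, adjusted p = 0.030) and Ltb (1.72, adjusted p = 0.00039), the latter a ligand of Ltbr, and the receptor Cd40 (1.80, adjusted p = 0.014). Nfkbib and Nfkbie fell, by 2.77 and 2.15 on the log2 scale. Nfkbia, the gene of the inhibitor IκBα, stood at 83.0 and 120 CPM in WT and at 207 and 227 CPM in IkBKO in this gate, and its genotype effect was larger than in the ungated cells by 1.32 (adjusted p = 0.00030). In that test of the difference, where 2.53% of all genes were called, 4 of 41 list members were called, all larger in the Cd74 gate: Nfkbia, Tnfaip3, Ltb and Birc2.

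Against the ungated cells, 17 of 41 list members were higher and 3 lower in the Cd74 gate, where 29.4% of all genes were called, with a median of 0.45 against -0.04 over all genes. In the Car1 gate 1 of 38 was higher and 23 lower, where 44.3% of all genes were called, with a median of -0.59 against -0.12. Map3k14 (log2 fold change 1.04, adjusted p = 0.0015) and Birc3 (1.89, adjusted p = 0.00048) were among those higher in the Cd74 gate, as was the kinase Chuk (1.40, adjusted p = 0.00025), which acts on the Nfkb2 precursor.

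The 5 members were also compared with 8177 genes of at least 10 CPM on average by Pearson's r of log2(CPM + 1) over 28 pools (7 classes in 4 pools). This is a description, since the classes of a pool share a library and some cells, and the gates and depth set much of it. Relb was most like Nfkb1 (r = 0.94) and Nfkb2 (r = 0.93), and Nfkb1 and Nfkb2 were each most like Relb. Rel was most like Pik3ap1 (r = 0.97), Lsp1 and St8sia4, and its r with the other members lay between 0.28 for Rela and 0.67 for Nfkb1. Rela was most like Rabep1 (r = 0.84), Rnpepl1 and Nf1, and its highest r with a member was 0.62, with Nfkb2. After the members, Nfkb1 was most like Dhx57 and Lrrk1, Relb like Msn, and Nfkb2 like Bcl2a1d and Prcp, with r between 0.90 and 0.93.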

How the data were processed

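RNA of sorted LSK cells was counted with a 10x 3′ droplet assay in 2 libraries. The deposited matrices hold raw UMI counts per gene and barcode, made with Cell Ranger 6.0.0 per the file headers, while Cell Ranger 7.0, Seurat 4.3.0 and the build mm10 appear in the submitters' processing notes. The genotype and quality call of each barcode come from the deposited cell table, whose rules, and any removal of doublets, are not stated. No doublet caller was run and no further filter was put on cells. The antibody tag counts were not used. Counts were summed per library, genotype and class and tested with edgeR 4.0.16 (R 4.3.3, quasi-likelihood F test, robust, TMM, filterByExpr, two-sided, Benjamini-Hochberg over all genes tested), with the library as a block, and called at an adjusted p of 0.05. The standard error is the fold change over the root of F.

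Both genotypes of a replicate shared 1 library, and over 14742 genes the deviations of same-numbered pools from the genotype means correlated at 0.686. The Mecom gate, for which no number of UMIs is given, was read as at least 1. Positions come from GENCODE, which held 32235 of the 32285 gene identifiers. The members, gates and gene lists were chosen with earlier results of these data known. All 5 members are named, as are the called genes of the pathway list and, per member, the 3 genes with the most similar levels. The steps were tested on simulated counts. There a 2-fold change was called for 74.6% of the changed genes over all LSK cells, 25.3% in the Cd74 gate and 29.8% in the Car1 gate. For the difference between the Cd74 gate and the ungated cells it was called for 14.3%. A member that was not called may thus still differ. Alternatives were no block, other scalings, no filter, DESeq2 1.42.0 and each pool left out. In the last, the genotype fits had no library block. Further alternatives were cells thinned to 5000 UMIs with shallower cells left out, and other gates.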

Additional observations from a re-analysis of the deposited data

Results flagged for a closer look

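The genotype effect on 2 members differed between the Cd74 gate and the ungated cells in the interaction test of edgeR. For Relb the effect was larger in the gate by 1.52 on the log2 scale (adjusted p = 0.038), with all 4 comparisons of IkBKO with WT, in both replicates and both classes, in the same direction. For Nfkb1 it was larger by 0.81 (adjusted p = 0.019), again with the same direction in all 4. The markers that moved with the gate are given beside these results, and their part was not tested.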

How the results depend on the processing

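Without the replicate block, the log2 fold change over all LSK cells was 0.89 for Relb (adjusted p = 0.48) and 0.64 for Nfkb2 (adjusted p = 0.43), 0 genes were called there (with edgeR, against 1964 with the block), and the difference between the Cd74 gate and the ungated cells was 1.53 for Relb and 0.80 for Nfkb1, with 58 genes called against 323. The cause was not tested for any change given here. Over all LSK cells Relb and Nfkb2 stood at 0.60 and 0.49 without the Il4i1 or Fscn1 cells, 0.48 and 0.43 without the Cd74 gate and 0.69 and 0.55 without all 6 gates, none of them called. With 1 pool left out they ranged from 0.59 to 1.29 and from 0.47 to 0.85, with 25 to 136 genes called. In the Cd74 gate, Nfkb1 and Nfkb2 stood at 0.94 and 1.13 with DESeq2, 0.73 and 1.20 in thinned cells and 0.84 and 0.68 without the Il4i1 or Fscn1 cells, and Nfkb2 at 0.99 in cells of exactly 1 gate and 0.81 with gates per 10000 UMIs, none of them called. With 1 pool left out, and again without the block, Nfkb1 ranged from 0.70 to 1.19 and Nfkb2 from 0.88 to 1.37. Relb stayed called in the gate under every alternative run there. The difference between the Cd74 gate and the ungated cells was not called for Relb at 1.49 with DESeq2, 1.11 in thinned cells, 0.85 without the Il4i1 or Fscn1 cells and 1.40 in cells of exactly 1 gate, nor for Nfkb1 at 0.79, 0.64, 0.71 and 0.67. With 1 pool left out it ranged from 0.86 to 2.26 for Relb and from 0.59 to 1.05 for Nfkb1.

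Over all genes, no filter on low counts called 3181 over all LSK cells, 897 against 535 in the Cd74 gate and 622 for the difference. DESeq2 called 110 in the gate and 165 for the difference, thinned cells 225 and 211, and cells without the Il4i1 or Fscn1 group 230 and 102. Doubled thresholds called 513 for the difference, and 984 were called over the cells outside all 6 gates. With 1 pool left out 171 to 402 were called in the gate and 181 to 311 for the difference. The noncanonical share differed by 12.0 percentage points in the Cd74 gate, 9.02 with gates per 10000 UMIs and 13.7 with doubled thresholds. Of 1334 alternative values of the members 108 changed sign, none of them called. Sign changes were listed singly for only part of the values given in the report. Left out were, among others, the genotype effects of Rela within the classes. Those of Rel and Nfkb1 in classes other than the Cd74 gate were left out too. In the part listed, the changes were Rel over all LSK cells (-0.42 to 0.082 with 1 pool left out), Rela there (0.019 without all 6 gates), Nfkb2 in the Pf4 gate (-0.16 to 0.65 with 1 pool left out, -0.10 with gates per 10000 UMIs and -0.16 with doubled thresholds) and Nfkb2 in the Car1 gate (-0.033 to 0.57 with 1 pool left out). The 15 and 9 Relb UMIs of the WT Cd74 gate and the 9 WT cells of the Car1 gate in replicate 2 limit the precision there.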
